A study of Mus musculus with 25 samples.

Results

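S100a8, S100a9, Csf3r, Cxcr2, Cxcl2, Cxcl3, Mmp8, Retnlg and Ly6g are 9 mouse genes used as markers of neutrophils or known to act in their recruitment. They were taken by symbol, as a list of neutrophil genes, from the 55450 genes of the count table. The data were bulk RNA sequencing of 25 melanomas in C57BL/6 mice implanted with the melanoma line M4 (B2905), with 1 library from each tumour. Every mouse received an antibody at 10 mg/kg, once tumours averaged 75 mm3. The 5 controls received isotype IgG2b, and the other 20 received anti-CTLA-4, an antibody against a receptor that restrains T cells. From 30 mice given anti-CTLA-4, only these 20 tumours were sequenced. By the change in tumour size 10 to 11 days after the last dose, 8 of the 20 were labelled responders (shrinking), 6 stable and 6 non-responders (growing). All tumours came from a single cell line, and the implantation site is not given in the sources used here.

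Neutrophils mature in the bone marrow under granulocyte colony-stimulating factor, which acts through the receptor encoded by Csf3r. They leave the blood along gradients of chemokines such as CXCL2 and CXCL3, which bind the receptor encoded by Cxcr2, and carry large stores of S100A8, S100A9 and granule proteins. Several of these genes are not restricted to neutrophils: monocytes also transcribe Csf3r and S100a8, and macrophages are a well-known source of Cxcl2 and Cxcl3.

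Most of these genes were scarce but higher in treated tumours, and only Csf3r was well counted. Against controls, 8 of 8 tested genes were called higher in responders, 6 of 8 in stable tumours and 1 of 8, Csf3r, in non-responders. A gene was called at an adjusted p under 0.05 in edgeR, and 36.1%, 22.2% and 10.6% of all 18031 genes tested were called higher in those comparisons (65%, 41.8% and 13.9% in either direction). These comparisons share the same 5 controls. Between outcome groups, 3 of 8 were called higher in responders than in non-responders, where 25.2% of all genes were called higher and 48.9% in either direction. In stable tumours 1 of 8 was called higher than in non-responders, against 7.08% higher and 14.9% in either direction. Between responders and stable tumours 0 of 8 were called, against 38.2% of all genes. That count was also 0 at an unadjusted p under 0.05, and 0 with DESeq2. Responders differed widely in the share of counts on protein-coding genes, and once that share entered the edgeR model as a covariate the background fell to 0 of 18031 genes called between responders and stable tumours (2296 at an unadjusted p under 0.05) and to 1810 between responders and non-responders. The counts of neutrophil genes called stayed at 0 and 3 in that model, but against non-responders S100a8 gained a call and Cxcl2 lost it. The share was 23.8 to 87.0% in responders and 82.9 to 89.2% in the other groups. The model therefore cannot fully separate it from the responder label. The ninth gene, Ly6g, was too scarce to be tested.

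**Figure D1:**
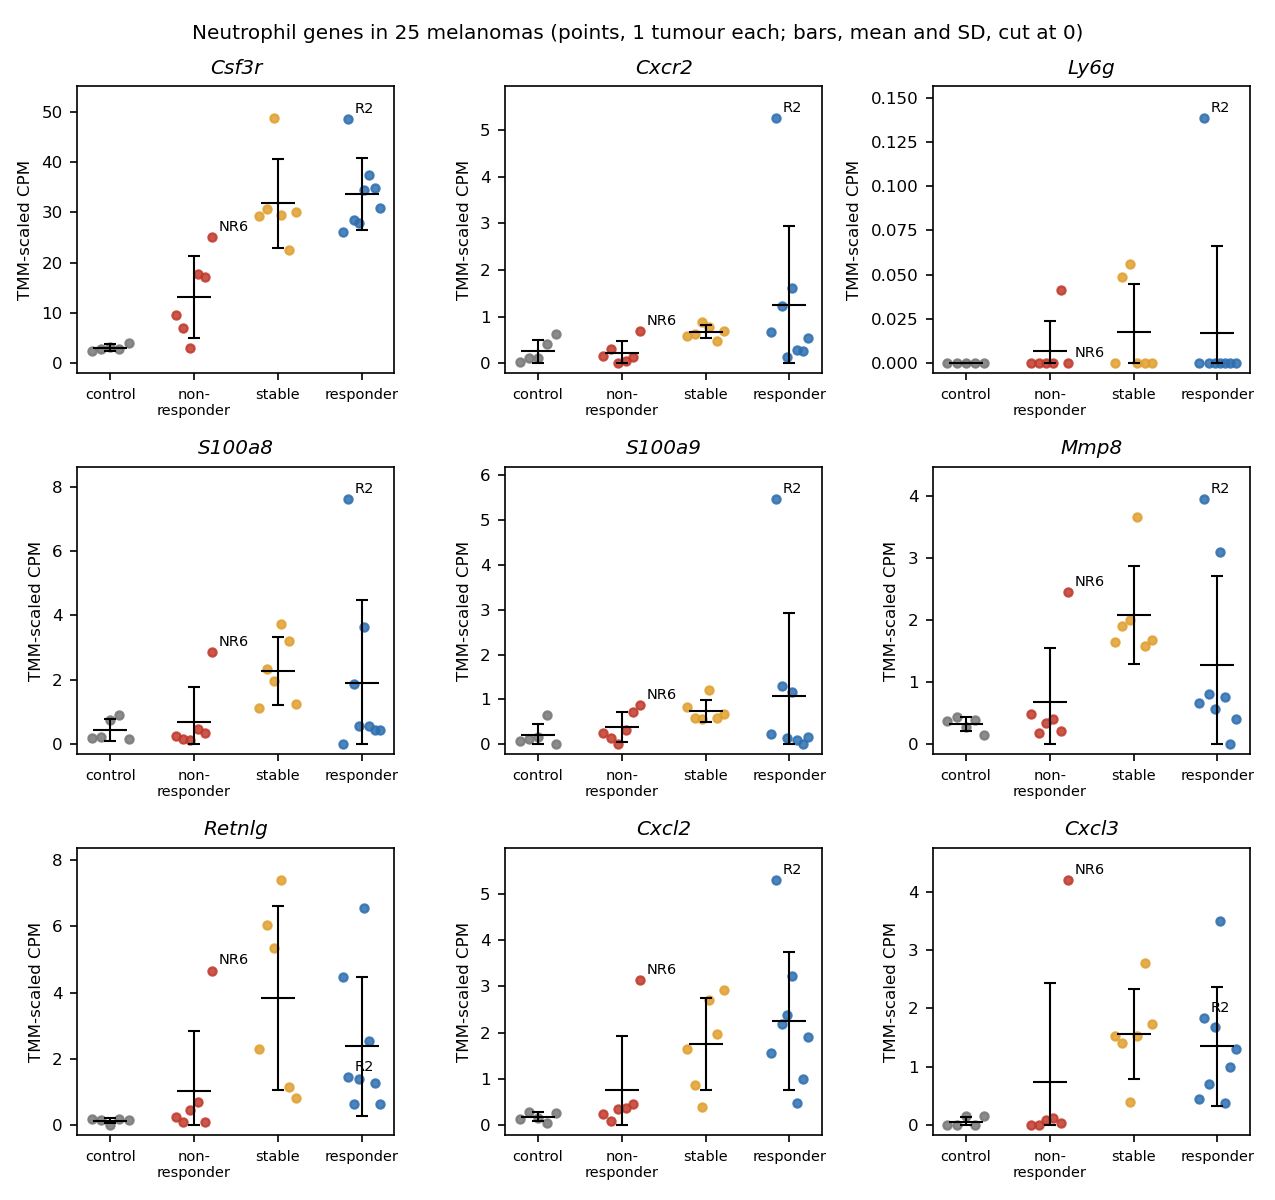
TMM-scaled counts per M counts (CPM, y axis, a separate linear scale for each gene) of the 9 genes in controls, non-responders, stable tumours and responders; each point is 1 tumour, and the bars give the mean and SD, cut at 0. Csf3r of every responder lies above every non-responder, whereas in most other panels non-responder 6 (NR6) or responder 2 (R2) stands above the rest of its group.

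Libraries held 8.76 to 34.3 M counts. Protein-coding genes took 82.9 to 89.2% of the counts in controls, non-responders and stable tumours, and 23.8 to 87.0% in responders. Each sample name opens with a number whose meaning is not stated in the labels, and each group holds an unbroken run of these numbers. Over all 25 tumours Csf3r had 9618 counts, while the other 7 tested genes had 299 (Cxcr2) to 906 (Retnlg) counts each. Per length, in the deposited RPKM averaged over tumours, the order of levels was Csf3r (5.07), Retnlg (2.41), S100a8 (2.38), S100a9 (0.922), Cxcl3 (0.848), Cxcl2 (0.756), Mmp8 (0.369) and Cxcr2 (0.189). The CPM values below compare tumours within a gene, not genes with each other.

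Csf3r (ENSMUSG00000028859.14, chromosome 4, 126024550 to 126044440, plus strand, GRCm38) encodes the receptor for granulocyte colony-stimulating factor. Its level was 2.33, 2.84, 3.21, 2.90 and 4.09 CPM in controls 1 to 5. It ranged from 3.01 to 25.0 CPM (median 13.3) in non-responders, from 22.5 to 48.8 (median 29.8) in stable tumours and from 26.1 to 48.6 (median 32.7) in responders. All 8 responders and all 6 stable tumours were above every control, and all 8 responders were above every non-responder. Among stable tumours 5 of 6 were above every non-responder, and stable 5 was below non-responder 6. Of all genes tested, 2.08% had every responder above every non-responder, and 14.9% had every responder above every control. For 18.4% every stable tumour was above every control. The lowest responder, responder 1, had 117 counts of 13.2 M, a protein-coding share of 23.8% and a TMM factor of 0.339. That factor was 0.818 to 1.05 in the other responders. Its place above non-responder 6 (655 counts of 25.4 M) rested on this scaling. So did that of responder 4, with 200 counts of 8.76 M and a factor of 0.818. In the deposited RPKM responder 1 was at 6.42, responder 4 at 7.24 and non-responder 6 at 5.20.

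The mean Csf3r level of the 5 controls was 3.07 ± 0.648 CPM (SD). That of the 6 non-responders was 13.2 ± 8.14, of the 6 stable tumours 31.8 ± 8.84 and of the 8 responders 33.6 ± 7.21 CPM (SD). The log2 fold change of non-responders over controls was 2.11 (SE 0.35, edgeR adjusted p = 0.000514), that of stable tumours 3.37 (SE 0.37, adjusted p = 8.21e-07) and that of responders 3.46 (SE 0.36, adjusted p = 1.28e-07). Csf3r also rose from non-responders to responders by 1.34 (SE 0.30, adjusted p = 0.00120) and from non-responders to stable tumours by 1.26 (SE 0.31, adjusted p = 0.0102). Responders and stable tumours, neighbours in the order of levels, differed by 0.08 (SE 0.29, adjusted p = 0.843), less than the spread within either group. In bulk tumour RNA, more cells of a type and more RNA per cell cannot be told apart. Each call of Csf3r held when any 1 tumour was left out, and the stable call against non-responders was lost when only those groups were fitted (1.26, adjusted p = 0.0550).

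**Figure D2:**
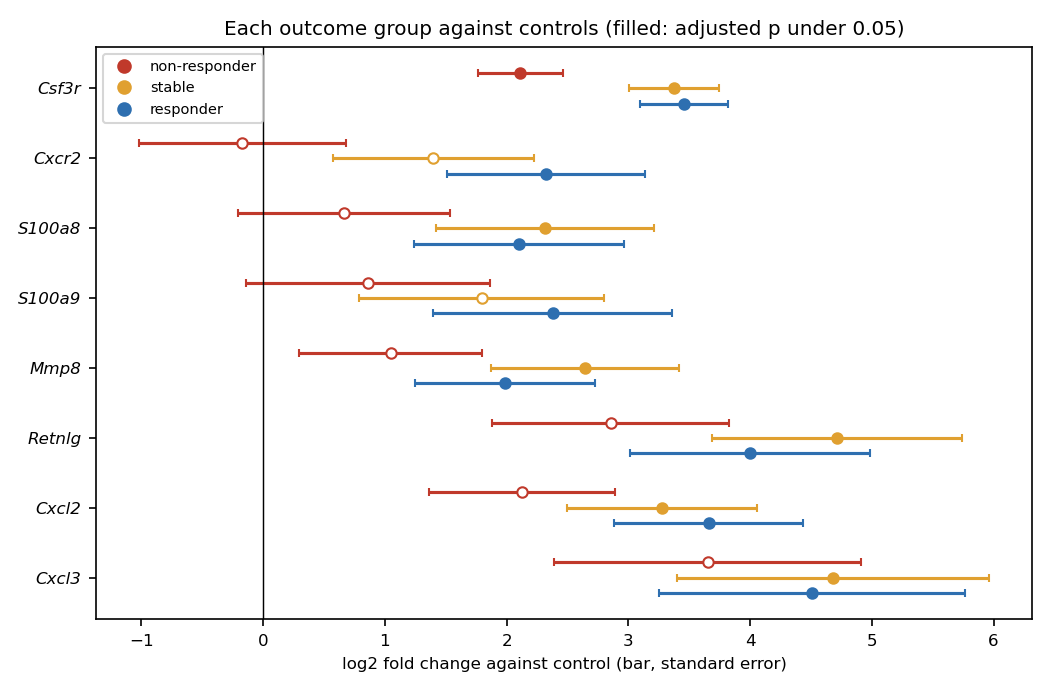
Log2 fold change against controls (x axis; bars, standard error) of the 8 tested genes in non-responders, stable tumours and responders, which share the same 5 controls; filled points have an edgeR adjusted p under 0.05. All 8 responder points and 6 stable points are filled, and Csf3r alone is filled for non-responders.

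Cxcl2 and Cxcl3 encode related chemokines that attract neutrophils through CXCR2, and lie on chromosome 5 (GRCm38, plus strand). Cxcl2 (ENSMUSG00000058427.10) spans 90903871 to 90905938, and Cxcl3 (ENSMUSG00000029379.10) spans 90786103 to 90789600. Their promoters are shown because the levels of these genes followed each other across tumours, and because they were the only 2 of the 9 genes with a match to a binding motif of NF-kB, an inflammatory transcription factor, spelled GGGAA, any 3 bases and CC. It was searched on both strands in the 250 bases before each RefSeq gene start (GRCm38.p6), and 4.94% of 32851 such windows held it. The 100 bases before each RefSeq start are printed 5′ to 3′, with capitals marking overlapping matches on the 2 strands. The Cxcl2 stretch, chr5:90903799-90903898, runs past the gene start annotated by GENCODE, and the Cxcl3 stretch is chr5:90786001-90786100. A match describes the letters and does not show binding.
Cxcl2: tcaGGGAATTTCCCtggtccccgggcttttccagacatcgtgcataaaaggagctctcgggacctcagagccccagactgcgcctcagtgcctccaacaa
Cxcl3: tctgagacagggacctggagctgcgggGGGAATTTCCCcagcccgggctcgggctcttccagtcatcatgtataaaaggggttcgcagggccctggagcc

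Cxcl2 was at 0.133, 0.295, 0.157, 0.0548 and 0.259 CPM in controls 1 to 5. It ranged from 0.0864 to 3.13 CPM (median 0.354) in non-responders, from 0.390 to 2.92 (median 1.81) in stable tumours and from 0.472 to 5.30 (median 2.05) in responders. Every responder and every stable tumour was above every control, as held for 14.9% and 18.4% of all genes in those comparisons. Responders overlapped with non-responders through a single tumour, non-responder 6. The mean of the 5 controls was 0.180 ± 0.0972 CPM (SD), that of the 6 non-responders 0.772 ± 1.16, of the 6 stable tumours 1.75 ± 0.994 and of the 8 responders 2.26 ± 1.5 CPM (SD). Over controls, Cxcl2 of responders was higher by a log2 value of 3.66 (SE 0.77, adjusted p = 0.000271) and that of stable tumours by 3.28 (SE 0.78, adjusted p = 0.00149). Its rise from non-responders to responders was 1.53 (SE 0.63, adjusted p = 0.0467). That last call was lost in 16 of 25 fits that left out 1 tumour, with a value of 1.22 (adjusted p = 0.110) without responder 2 and of 2.89 (adjusted p = 0.000467) without non-responder 6. Other fits that ended it had no low-count filter, protein-coding share as covariate, only the groups compared, or Cxcl2 and Cxcl3 summed.

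Cxcl3 had 0 counts in controls 1, 2 and 4, and was at 0.157 CPM in control 3 and 0.155 in control 5. It ranged from 0 to 4.20 CPM (median 0.0638) in non-responders, from 0.390 to 2.78 (median 1.53) in stable tumours and from 0.378 to 3.51 (median 1.15) in responders. Of the 116 counts in non-responders, 110 came from non-responder 6, which was above every responder and every stable tumour. Cxcl3 rose against controls in responders by 4.51 (SE 1.26, adjusted p = 0.00323) and in stable tumours by 4.68 (SE 1.28, adjusted p = 0.00476), on only 7 counts over the 5 controls, or by 5.28 and 5.46 without control 3. Against non-responders it was 0.86 higher in responders (SE 0.90, adjusted p = 0.440), and 4.52 higher without non-responder 6 (SE 0.83, adjusted p = 0.000267). The expected counts of Cxcl2 and Cxcl3 were whole except in responder 2, where they were 76.59 and 26.41 and summed to 103, and in responder 3, where they were 40.91 and 13.09 and summed to 54. Reads shared by the 2 genes were therefore split between them in at least those tumours.

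Cxcr2 (ENSMUSG00000026180.8, chromosome 1, 74153989 to 74161246, plus strand), the receptor for these chemokines, was the scarcest tested gene. It was at 0.0333, 0.111, 0.117, 0.411 and 0.621 CPM in controls 1 to 5, or 1 to 15 counts. It ranged from 0 to 0.688 CPM (median 0.144) in non-responders, from 0.479 to 0.892 (median 0.659) in stable tumours and from 0.140 to 5.26 (median 0.610) in responders. Stable tumours lay close together, while responders ran from among the lowest values to the highest, and 3 of 8 were above every non-responder. Cxcr2 rose from non-responders to responders by 2.5 (SE 0.77, adjusted p = 0.0111) and from controls to responders by 2.33 (SE 0.81, adjusted p = 0.0151). Both calls were lost without responder 2, at 1.65 (adjusted p = 0.0506) and 1.48 (adjusted p = 0.0725), and in limma on log2(RPKM + 1), and the first was 3.33 without non-responder 6. With only stable tumours and controls fitted, Cxcr2 was called there as well, at 1.43 (adjusted p = 0.0413).

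S100a8 and S100a9 encode the subunits of calprotectin, the calcium-binding complex that fills the neutrophil cytosol. They are neighbours on chromosome 3: S100a8 (ENSMUSG00000056054.9) spans 90668978 to 90670035 on the plus strand, and S100a9 (ENSMUSG00000056071.12) spans 90692632 to 90695721 on the minus strand. S100a8 was at 0.200, 0.221, 0.743, 0.904 and 0.155 CPM in controls 1 to 5. It ranged from 0.129 to 2.87 CPM (median 0.288) in non-responders, from 1.12 to 3.74 (median 2.15) in stable tumours and from 0 to 7.62 (median 0.563) in responders. Every stable tumour was above every control, as held for 18.4% of all genes, but 5 of 8 responders lay within the range of the controls or below it. Responders 2, 3 and 5 held the highest responder values.

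S100a9 was at 0.0667, 0.111, 0.157, 0.657 and 0 CPM in controls 1 to 5. It ranged from 0 to 0.879 CPM (median 0.284) in non-responders, from 0.557 to 1.22 (median 0.635) in stable tumours and from 0 to 5.47 (median 0.187) in responders. Its groups overlapped in every comparison, and responders 2, 3 and 5 were again the highest responders. Against controls, responders were higher by 2.10 for S100a8 (SE 0.86, adjusted p = 0.0358) and by 2.38 for S100a9 (SE 0.98, adjusted p = 0.0372). Stable tumours were higher by 2.32 for S100a8 (SE 0.89, adjusted p = 0.0401), and by 1.79 for S100a9, which was not called (SE 1.00, adjusted p = 0.159) except without control 4 (3.01, adjusted p = 0.0461) or with only these groups fitted (1.80, adjusted p = 0.0292). Neither gene was called between responders and non-responders (S100a8 1.44, SE 0.78, adjusted p = 0.127; S100a9 1.51, SE 0.88, adjusted p = 0.155). With protein-coding share as covariate S100a8 was called there, at 2.94 (SE 0.94, adjusted p = 0.0487).

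The calprotectin calls rested on few tumours. Against controls, the responder calls of S100a8 and S100a9 were each lost in 5 of 25 fits without 1 tumour, with 1.34 (adjusted p = 0.138) and 1.19 (adjusted p = 0.229) without responder 2. The S100a8 call was also lost without responder 5 or control 1, 2 or 5, and the S100a9 call without control 1, 2, 3 or 5. Without control 4, S100a9 was 3.59 higher in responders. The stable call of S100a8 was lost without stable 2, 4 or 5 or control 1, 2 or 5. Both responder calls were lost in limma on RPKM and with no low-count filter, as was the stable call in the latter. The responder call of S100a8 was also lost with only the groups compared.

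Mmp8 and Retnlg encode secreted proteins of neutrophils: neutrophil collagenase, stored in granules, and resistin-like gamma. Mmp8 (ENSMUSG00000005800.3, chromosome 9, 7558456 to 7568485, plus strand) was at 0.367, 0.442, 0.274, 0.384 and 0.155 CPM in controls 1 to 5. It ranged from 0.173 to 2.45 CPM (median 0.374) in non-responders, from 1.58 to 3.65 (median 1.79) in stable tumours and from 0 to 3.95 (median 0.712) in responders. Every stable tumour was above every control, as held for 18.4% of all genes, and only responders 2 and 5 were above every non-responder. Mmp8 rose against controls in stable tumours by 2.64 (SE 0.77, adjusted p = 0.00765) and in responders by 1.99 (SE 0.74, adjusted p = 0.0215). The responder call was lost without responder 2 (1.5, adjusted p = 0.0653) or control 5 (1.82, adjusted p = 0.0529), and in limma on RPKM.

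Retnlg (ENSMUSG00000022651.6, chromosome 16, 48872621 to 48874496, plus strand) was at 0.200, 0.147, 0, 0.192 and 0.155 CPM in controls 1 to 5. It ranged from 0.0832 to 4.66 CPM (median 0.358) in non-responders, from 0.809 to 7.39 (median 3.82) in stable tumours and from 0.644 to 6.56 (median 1.43) in responders. All stable tumours and responders were above every control, and all 6 stable tumours were above 5 of the 6 non-responders. Of all genes, 18.4% had every stable tumour above every control, and 14.9% every responder. Retnlg rose against controls in stable tumours by 4.71 (SE 1.03, adjusted p = 0.000651) and in responders by 4.00 (SE 0.99, adjusted p = 0.00116). In non-responders Retnlg was 2.85 higher than in controls (SE 0.97, adjusted p = 0.0522), Cxcl2 2.13 (SE 0.76, adjusted p = 0.0636) and Cxcl3 3.65 (SE 1.26, adjusted p = 0.0550), none of them called in edgeR. DESeq2 called all 3, and so 4 of 8 tested genes with Csf3r, where 2188 of 18031 genes were called higher. Without non-responder 6 the edgeR differences of Retnlg, Cxcl2 and Cxcl3 were 1.14, 0.77 and -0.013. The calls of Retnlg, Cxcl2 and Cxcl3 in responders and stable tumours against controls held whichever tumour was left out and in every alternative that tested them.

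Ly6g (ENSMUSG00000022582.4, chromosome 15, 75155240 to 75159126, plus strand) encodes the surface protein recognised by the antibodies that define mouse neutrophils. It had 5 counts over the 25 tumours: 2 in responder 2 and 1 each in non-responder 5, stable 2 and stable 3. The 5 controls had 0 of 127.578 M counts, which allows up to 0.0235 counts per M without TMM scaling (3 counts over the group, counting error only). Ly6g is not among the symbols of the RPKM table, and no difference between groups was detectable at this depth. Granule protein genes that neutrophil precursors transcribe varied in level: Elane, Camp, Ngp and Fcnb were at 0 counts in 20, 19, 22 and 23 of 25 tumours, Mpo in 17 and Ctsg in 10, but Prtn3 in only 3 and Ltf in 2. Cxcr1, the other receptor of this chemokine family in neutrophils, was at 0 in 22.

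When all anti-CTLA-4 tumours were set against controls, weighting the 3 outcome groups equally, 5 of 8 tested genes were called higher, against 27.7% of all genes called higher and 51.1% in either direction. They were Cxcl3 (4.28), Retnlg (3.85), Cxcl2 (3.02), Csf3r (2.98) and Mmp8 (1.89), as log2 fold changes with adjusted p from 6.37e-07 to 0.0235. Cxcl3 was 3.06 higher without non-responder 6 and 5.05 without control 3. The Mmp8 call was lost without control 3 (adjusted p = 0.0509) or control 5 (adjusted p = 0.0630). S100a8 was 1.69 higher (SE 0.79, adjusted p = 0.0746), S100a9 1.68 (SE 0.89, adjusted p = 0.117) and Cxcr2 1.18 (SE 0.72, adjusted p = 0.176). The median log2 fold change of the 8 tested genes was 2.44, beside 0.07 over all genes.

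The median of the 8 tested genes was 2.92 in responders against controls, 2.96 in stable tumours and 1.58 in non-responders, beside 0.16, 0.02 and 0.04 over all genes. Without non-responder 6 the median in non-responders was 0.20, beside 0.03 over all genes. Between outcome groups it was 1.39 in responders minus non-responders and 1.41 in stable tumours minus non-responders, beside 0.05 and -0.02 over all genes, and without non-responder 6 it was 2.83 and 2.60, beside 0.06 and -0.03. For responders minus stable tumours it was -0.05, beside 0.01. In that last comparison the differences ran from -0.71 for Retnlg (SE 0.73) to 0.93 for Cxcr2 (SE 0.71). For 6 of the 8 genes the standard error was larger than the difference, and a missed threshold does not show that these groups were alike.

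Non-responder 6 stood apart from the other 5 non-responders. It had the highest non-responder value of all 8 tested genes, with Cxcl3 at 4.20 CPM beside 0 to 0.121 in the others and Retnlg at 4.66 beside 0.0832 to 0.688. Without it, 7 of 8 tested genes were called higher in responders than in non-responders, against 24.5% of all genes, and 7 of 8 in stable tumours, against 11.1%. S100a9 was the exception in both, at 1.96 (SE 0.97, adjusted p = 0.0988) and 1.37 (SE 1.00, adjusted p = 0.359). In that fit the responder difference was 2.81 for S100a8 (SE 0.80), 2.86 for Retnlg (SE 0.74) and 2.04 for Mmp8 (SE 0.65), with adjusted p of 0.00708, 0.00367 and 0.0141. This tumour was labelled a non-responder by size, and was singled out here by its values of these same genes. Leaving out the highest tumour of the lower group widens each difference by construction. The added calls are therefore no separate support, and the shares of all genes were not selected in this way.

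**Figure D3:**
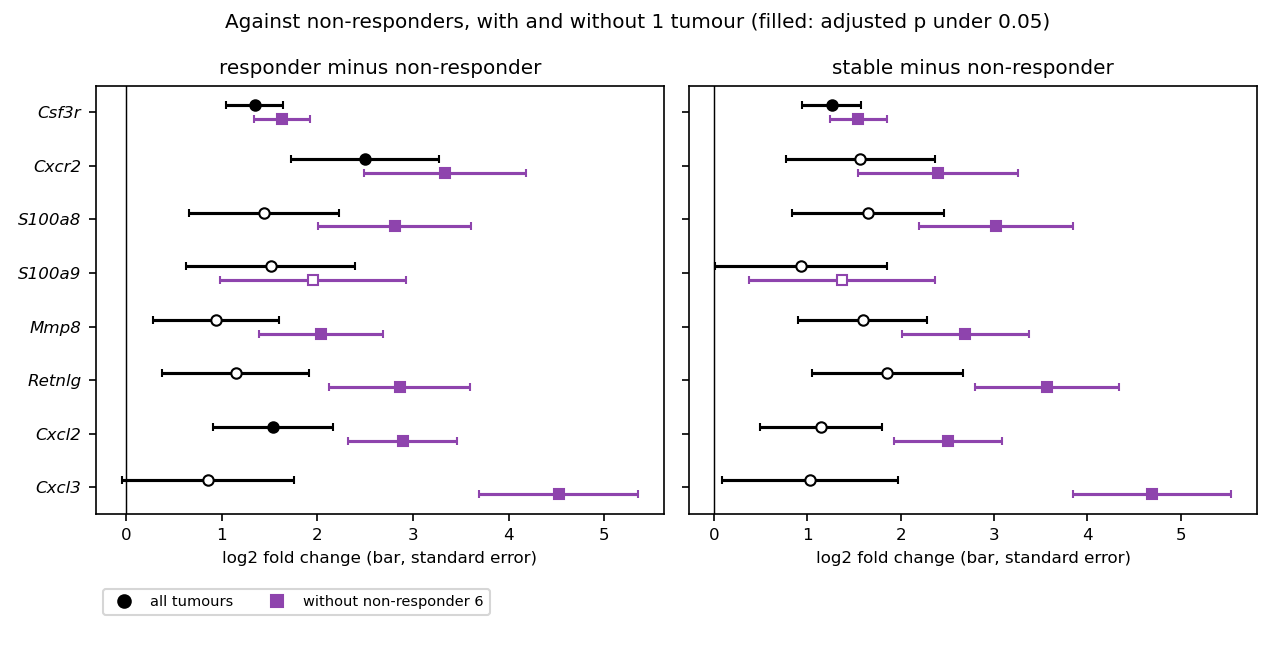
Log2 fold change (x axis; bars, standard error) of the 8 tested genes in responders (left) and stable tumours (right) against non-responders, with all tumours (circles) and without non-responder 6 (squares); filled symbols have an edgeR adjusted p under 0.05. Filled symbols go from 3 to 7 on the left and from 1 to 7 on the right when that tumour is left out. It was the highest non-responder for all 8 genes, so its removal widens each difference by construction.

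Markers of other cell types also differed in non-responder 6. Its summed level of 8 melanocyte markers was the lowest of the non-responders, at 726 CPM beside 908 to 14062 in the others. Its summed levels of 10 monocyte and macrophage markers (2697 CPM) and of 8 T cell markers (206 CPM) were the highest, beside 825 to 2420 and 23.7 to 132 CPM. Its protein-coding share, 85.1%, was within the range of the group. The part of cell composition in the neutrophil gene values was not tested.

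Responder 2 carried the highest level over all 25 tumours of S100a8, S100a9, Cxcr2, Cxcl2 and Mmp8. It held 33.7% of the summed S100a9 levels and 31.5% of those of Cxcr2. Without it, 1 of 8 tested genes, Csf3r, was called in responders against non-responders (1.25, SE 0.30, adjusted p = 0.00261), where 24.2% of all genes were called higher. Against controls 4 of 8 were then called, Csf3r, Cxcl2, Cxcl3 and Retnlg, where 36.0% of all genes were called higher.

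Pairs of genes were compared across the 25 tumours on log2 CPM, as 28 pairs of the 8 tested genes. The closest pair was Cxcl2 and Cxcl3, with a Pearson r of 0.91 (adjusted permutation p = 9.33e-05) and a Spearman rho of 0.92 (adjusted permutation p = 0.000187). Without the 2 tumours farthest from the median of Cxcl2 r was 0.91, and with group means removed it was 0.82. S100a8 and S100a9 had r = 0.81 (adjusted permutation p = 0.00012) and rho = 0.78 (adjusted permutation p = 0.00024), with 0.82 without the 2 farthest tumours and 0.77 with group means removed. Csf3r and S100a8 were less close, at r = 0.55 (adjusted permutation p = 0.00588) and rho = 0.58 (adjusted permutation p = 0.00315), with 0.63 and 0.46 in the same checks. All 28 values of r were positive, from 0.41 to 0.91, and from 0.15 to 0.82 with group means removed. Within single groups they varied more. They ran from 0.35 to 0.96 over the 6 non-responders and from -0.09 to 0.94 over the 8 responders. Over the 6 stable tumours they ran from -0.99 (Csf3r and Cxcl3) to 0.87 (Csf3r and Cxcr2), and 10 of 28 were negative. Among those stable tumours r was 0.81 for Cxcl2 and Cxcl3, 0.21 for S100a8 and S100a9 and -0.24 for S100a8 and Csf3r. These tumours share their group differences and library scaling, and few counts stand behind most values.

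**Figure D4:**
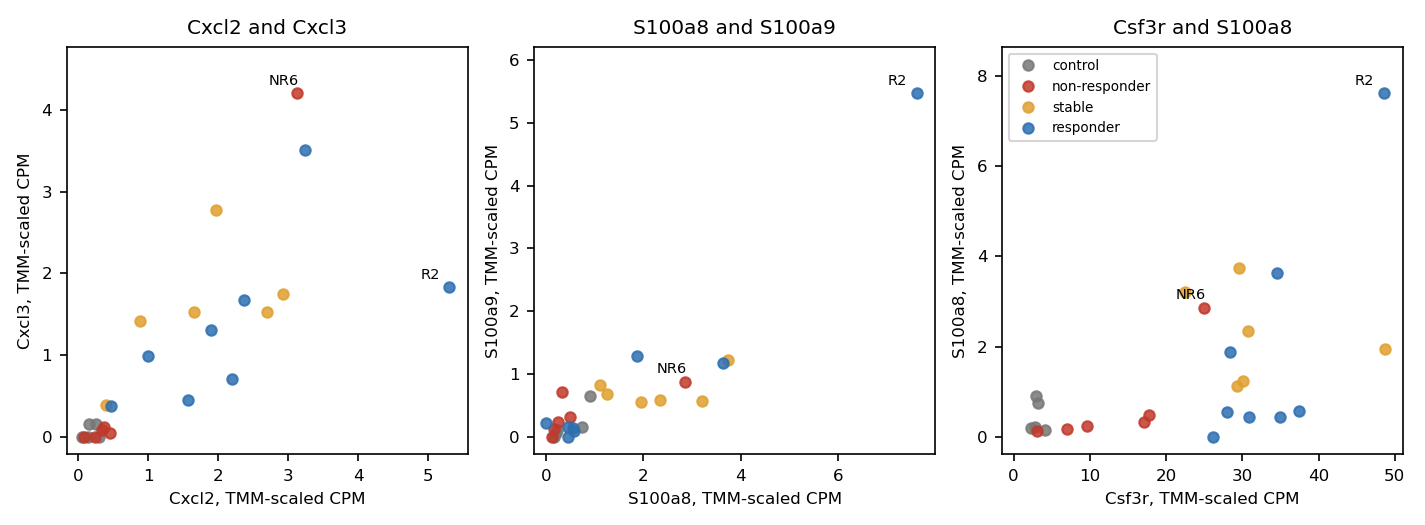
Levels of gene pairs in the 25 tumours (TMM-scaled CPM on linear axes; each point is 1 tumour, coloured by group): Cxcl2 and Cxcl3, S100a8 and S100a9, and Csf3r and S100a8. On the right, 5 responders combine Csf3r of 26.1 to 37.5 CPM with S100a8 of 0 to 0.567 CPM, while responder 2 is high for both.

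The ratio of S100a8 to Csf3r counts differed widely between tumours with similar Csf3r. For each 100 Csf3r counts, S100a8 had from 0 to 15.7 counts in single responders (median 1.76), from 3.82 to 14.3 in stable tumours (median 5.88) and from 3.80 to 31.1 in controls (median 8.57). Cxcr2 had from 1.83 to 2.65 counts per 100 Csf3r counts in stable tumours and from 0.500 to 10.8 in responders. Retnlg had from 2.69 to 25.0 in stable tumours and from 2.10 to 19.0 in responders. The groups overlapped for each of these ratios, and no test was made of them.

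Other neutrophil genes were read from 3 lists. Of 14 granule protein genes 5 were tested, and 2 were called higher in responders than in non-responders and 0 lower (median 0.65, beside 0.05 over all genes). The share of all genes called higher in that comparison was 25.2%. Chil3, a chitinase-like protein of neutrophils and alternatively activated macrophages, averaged 0.751 ± 0.372 CPM in the controls, 43.4 ± 100 in the non-responders, 649 ± 486 in the stable tumours and 682 ± 711 in the responders (SD). Its rise from non-responders to responders was 3.97 (SE 1.36, adjusted p = 0.0207), or 7.98 without non-responder 6 (adjusted p = 0.000157), and was not called with protein-coding share as covariate or with only the groups compared. Lcn2, a lipocalin that binds bacterial iron carriers, was 12.8 ± 26.1 CPM in responders and 0.913 ± 0.597 in non-responders (SD), a rise of 3.83 (SE 1.10, adjusted p = 0.00718). It was 2.15 without responder 2 (adjusted p = 0.0406) and 1.98 in DESeq2, and was not called in limma on RPKM.

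Of 20 surface receptor and mature-state genes 14 were tested, and 2 were called higher in responders than in non-responders and 1 lower (median 0.43), a smaller share higher than the 25.2% of all genes. Trem1, an activating receptor of myeloid cells, rose by 2.47 (SE 0.72, adjusted p = 0.00752), from 0.621 ± 0.856 to 3.44 ± 3.96 CPM (SD), or by 1.76 without responder 2 and 3.68 without non-responder 6. Cd33, a surface receptor of myeloid cells, rose by 1.24 (SE 0.24, adjusted p = 0.000370), from 17.5 ± 7.67 to 41.3 ± 13.5 CPM (SD). G0s2, an inhibitor of fat breakdown that is abundant in mature neutrophils, moved the other way and fell by 1.69 (SE 0.23, adjusted p = 2.05e-05), from 6.89 ± 2.63 to 2.12 ± 0.510 CPM (SD), with 13.9 ± 3.77 in controls. These 3 calls held in every fit that left out 1 tumour.

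Of 13 genes for other ligands of CXCR2 and for cytokines that raise or recruit neutrophils, 6 were tested. In responders 2 were called higher than in non-responders and 0 lower (median 1.10), where 25.2% of all genes were called higher. Cxcl1, another ligand of CXCR2, rose by 2.70 (SE 0.75, adjusted p = 0.00586), but by 1.37 without responder 2 (adjusted p = 0.0363) and by 1.28 in DESeq2, and was not called in limma on log2(RPKM + 1). Il1b, an inflammatory cytokine of myeloid cells, rose by 1.52 (SE 0.46, adjusted p = 0.00961). Without non-responder 6 the value was 2.60. Il1b was highest in stable tumours, at 41.2 ± 12.7 CPM (SD, n = 6) beside 26.6 ± 14.3 in responders (SD, n = 8), a difference that was not called. Csf3, the ligand of the Csf3r receptor, and Il17a were each at 0 counts in 23 of 25 tumours, and Cxcl15 in 24.

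Against controls, 5 of 5 tested granule genes, 9 of 14 tested surface genes and 5 of 6 tested recruitment genes were called higher in responders, where 36.1% of all genes were. In stable tumours it was 4 of 5, 9 of 14 and 4 of 6 (22.2% of all genes), and in non-responders 3 of 5, 8 of 14 and 4 of 6 (10.6%). The other genes of these lists were too scarce to be tested. G0s2 was the only gene of the 3 lists called lower, in all 3 comparisons.

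The same comparisons carried wide differences in the RNA levels of markers of other cell types, and cell composition itself was not measured. Of all 18031 genes tested, 36.1% were called higher in responders, 22.2% in stable tumours and 10.6% in non-responders than in controls. In responders 3202 were called lower than in stable tumours. Against non-responders, 4538 were called higher and 4285 lower in responders, and 1417 lower in stable tumours. Of 10 monocyte and macrophage markers, 9 were called higher in responders, 10 in stable tumours and 8 in non-responders than in controls. Of the same 10 markers, 7 were called lower in responders than in stable tumours. Their summed level was 600 to 1089 CPM among controls, 825 to 2697 among non-responders, 2430 to 3698 among stable tumours and 1135 to 3379 among responders, with no marker at 0 in any tumour. All 8 T cell markers were higher in each treated group than in controls, and summed to 8.66 to 27.7, 23.7 to 206, 145 to 229 and 87.0 to 260 CPM in the same order. All 8 melanocyte markers were lower in stable tumours and responders than in non-responders, and summed to 10684 to 17512, 726 to 14062, 228 to 505 and 304 to 725 CPM. Of 6 eosinophil markers 3 were tested, and all 3 were higher in responders and stable tumours and 2 in non-responders than in controls. They summed to 0.533 to 1.60, 1.33 to 10.4, 3.07 to 19.0 and 2.00 to 20.0 CPM, with Epx at 0 in 22 tumours, Ear1 in 21 and Ear6 in 17. Of 6 mast cell markers 4 were lower in responders and 3 in stable tumours than in non-responders, with sums of 63.9 to 133, 84.2 to 170.3, 47.0 to 93.0 and 27.5 to 64.3 CPM. Of 8 keratinocyte markers 1 was called higher in responders than in non-responders, where all 8 differences were positive, and sums ran from 14.6 to 1123, 15.6 to 524, 23.3 to 437 and 4.63 to 2063 CPM, with Krt1 and Lor at 0 in 10 tumours each. Of 6 skeletal muscle markers 3 were lower in responders than in non-responders (51.0 to 1092, 92.9 to 1116, 266 to 781 and 29.1 to 579 CPM). Of 6 fibroblast markers 1 was lower there, and 3 were higher in responders, 5 in stable tumours and 4 in non-responders than in controls (3304 to 6250, 5882 to 13673, 7444 to 15306 and 6947 to 15888 CPM). The part of these differences in the neutrophil gene values was not tested.

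Outside the 9 genes, those with the pattern most like that of Cxcl2 over the 25 tumours, among 13521 genes with a mean of at least 1 CPM, were the granzyme genes Gzmd and Gzme and the costimulatory receptor gene Tnfrsf9. The root mean square difference of standardised log2 CPM was 0.46 SD for Gzmd, 0.46 for Tnfrsf9 and 0.50 for Gzme. Nearest to S100a9 outside the 9 genes were Rhog (0.57), Fam217b (0.61) and Apoc2 (0.63), at a larger distance, with S100a8 at 0.61 on the same measure.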

How the data were processed

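RNA from 25 tumours was sequenced from a stranded total RNA kit per the labels' protocols, while their molecule field says polyA RNA, a conflict that was not resolved. The submitters' processing notes name bcl2fastq 2.17, Trimmomatic, STAR 2.5.1, RSEM 1.2.22 and mm10, with no role or order. The authors deposited expected counts, per the labels' named tool RSEM, for 55450 genes, of which 5.64% of values were not whole, and these were rounded for count models. The authors also deposited RPKM values, with gene lengths and denominator not stated in the labels. All 55450 identifiers matched GENCODE release M21 (GRCm38), the source of gene coordinates, and promoters came from RefSeq (GRCm38.p6), where all 9 genes matched.

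Counts were filtered with filterByExpr (18031 genes left), scaled by TMM and tested with robust quasi-likelihood F tests in edgeR 4.0.16 (R 4.3.3), in 1 fit of 4 group means over all tumours and 7 contrasts. All tests were two-sided at a threshold of 0.05, and p-values were adjusted over all genes tested (Benjamini-Hochberg). CPM values are TMM-scaled. The scripts were tested on simulated data. Replicates are tumours numbered in record order, each with its own identifier in the labels. Total counts of 8.76 to 34.3 M set the precision, and a count of 0 is given with a floor of 3 counts. Correlations used log2 CPM with a prior count of 2 and 100000 permutations.

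Alternatives covered the tool (DESeq2 1.42.0, and limma 3.58.1 on log2(RPKM + 1) and log2(RPKM + 0.1)), the scaling (RLE, or protein-coding genes only), the filter (none, or a mean count of 50 with 1 CPM in 8 tumours), a covariate (each library's protein-coding share) and the samples (only the groups compared, or any 1 tumour left out). Summing Cxcl2 and Cxcl3, and leaving out tumours under 50% protein-coding counts, were added after seeing the data. Named beside the 9 genes were, from each of the granule, surface and recruitment lists, up to 2 of the highest and 2 of the lowest called fold changes in responders minus non-responders, and the 3 genes most like Cxcl2 and S100a9. Genes named for being at 0 counts or for a single difference were chosen after their values were seen. The 9 genes, the lists and the tests were chosen with earlier results of these data known.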

Additional observations from a re-analysis of the deposited data

Results flagged for a closer look

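Within each group of 5 to 8 tumours, a tumour was looked at again when its gap to the nearest other tumour took an unusually large part of the group's range (Dixon's test at 95%). For normally distributed values chance flags about 1 in 20 groups, and 14 of 35 groups of gene and outcome were flagged. The values here were linear CPM, mostly from few counts, so that rate does not apply. A group with counts in only 1 tumour, as for Ly6g, is always flagged. The 35 groups share tumours, so the flags are not independent.

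Non-responder 6 was flagged 5 times, as the highest of its group for S100a8 (2.87 CPM, next 0.485), Cxcl2 (3.13, next 0.458), Cxcl3 (4.20, next 0.121), Mmp8 (2.45, next 0.487) and Retnlg (4.66, next 0.688). Responder 2 was flagged 3 times, as the highest responder for S100a9 (5.47 CPM, next 1.29), Cxcr2 (5.26, next 1.62) and Ly6g (0.139, next 0, from 2 counts).

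Other tumours were flagged once each. The highest of their groups were control 4 for S100a9 (0.657 CPM, next 0.157), stable 3 for Csf3r (48.8, next 30.7), responder 5 for Cxcl3 (3.51, next 1.83), stable 4 for Mmp8 (3.65, next 2.01) and non-responder 5 for Ly6g (0.0416, next 0, from 1 count). Control 3 was flagged as the lowest control for Retnlg (0 CPM, next 0.147), a difference of a few counts.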

How the results depend on the processing

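Every count of tested genes called between responders and stable tumours was 0, in all alternatives and with any 1 tumour left out. With 1 tumour left out, counts against non-responders ran from 1 to 7 for responders and 1 to 7 for stable tumours. Of the 17905 to 18407 genes tested, 7255 to 10052 and 1470 to 3804 were then called in either direction. Against controls, counts ran from 4 to 8 for responders, 5 to 7 for stable tumours, 1 to 4 for non-responders and 4 to 6 for all anti-CTLA-4 tumours. Over all genes it was 10978 to 12223, 6657 to 8116, 1570 to 4237 and 7697 to 10146 in that order. The stricter filter left 1 of the genes, Csf3r, to test, and it was called in every comparison except responders against stable tumours. Of 13173 genes, 3615 were called higher for responders and 1334 for stable tumours against non-responders. Against controls it was 4930 for responders, 3276 for stable tumours, 1693 for non-responders and 4000 for all anti-CTLA-4 tumours. In limma on log2(RPKM + 1), 2 were called for stable tumours minus non-responders and 4 for responders minus controls. Of all 18061 genes in those fits, 1218 and 5613 were called higher. On log2(RPKM + 0.1), 5 neutrophil genes were called for responders and 4 for stable tumours against non-responders, and 5 for responders against controls. Over all 18061 genes, 3802, 1230 and 5590 were called higher there. With only the groups compared, 1 of 6 tested was called for responders and 0 of 8 for stable tumours against non-responders. Over all genes, 3461 of 16858 and 903 of 16278 were called higher there. Against controls, 5 of 6 were called for responders, while 8 of 8 were for stable tumours. Over all genes, 5354 of 17132 and 4515 of 16482 were called higher in these fits. For non-responders minus controls, 4 were called in DESeq2, beside 2188 of all 18031 genes called higher. Scaling on protein-coding genes alone called 2, beside 1674 of 14881 genes higher. The covariate of protein-coding share called 2 (2094 of 18031 genes higher), as did summing Cxcl2 and Cxcl3 (1909 of 18030). The cause of these changes was not tested, except that fewer genes were tested where stated. No called log2 fold change changed sign, and 15 values that were not called did. For responders minus stable tumours they were S100a9 (-0.47 on log2(RPKM + 0.1), and -0.61 to 0.79 with 1 tumour left out), Csf3r (-0.012 to 0.24), Cxcl3 (0.34 with the covariate, and -0.56 to 0.069), S100a8 (1.35 with the covariate) and Mmp8 (0.0025 with the covariate). For non-responders minus controls, with 1 tumour left out, they were Cxcr2 (-1.0 to 0.36), S100a8 (-0.70 to 1.10), Cxcl3 (-0.013 to 4.43) and Mmp8 (-0.050 to 1.25), where the sign of the last 3 turned without non-responder 6. Depth limited Ly6g most, at 5 counts in all, and left 7 of the 8 tested genes at under 10 counts in 8 to 13 of 25 tumours each. No paired analysis was possible because the replicate numbers follow record order and tie no tumours together across groups. The fit of only the groups compared was not run for all anti-CTLA-4 tumours, which span every group.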
